A study of Mus musculus with 5 samples.

Results

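The histone genes of myeloid progenitors were examined in 3′ RNA sequencing libraries from mice with a deletion in Bcor and from mice without it. Histones are the proteins around which DNA is wound, and their messenger RNAs come in 2 kinds. Protein-coding genes were taken as histone genes from their symbols, which gave 82 of the 52550 genes in the table. Of these, 67 were replication-dependent genes, whose symbols open with Hist, and 15 were variant genes, such as H3f3a and H2afz. H13, which is no histone gene, and 9 noncoding genes with histone-like symbols were left out.

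The cells were Lin-cKIT+Sca-1- (KL) cells, a bone marrow fraction rich in committed myeloid progenitors, taken 20 weeks after tamoxifen. Every animal carried the scl-Cre-ERT transgene and had been given 1 mg of tamoxifen into the peritoneum on each of 5 days, from an age of 3 to 6 months. The 3 BcorΔE9-10 libraries came from mice with a floxed allele on their single X chromosome (Bcorfl/y), in which Cre removes exons 9 and 10, and the 2 BcorWT libraries from Bcorwt/y mice. Cre was driven by a promoter active in haematopoietic stem cells, so the deletion reached KL cells by descent, and the share of cells that carried it was not measured here. The labels do not tie libraries to named animals or cultures, so p-values measure the spread between these libraries.

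Replication-dependent histone genes supply the bulk of new histones while DNA is copied. Their messenger RNAs end in a conserved stem-loop, bound by SLBP, and normally have no poly-A tail. Variant histones are made throughout the cell cycle from polyadenylated messenger RNAs, and they mark particular regions or states of chromatin. The QuantSeq 3′ method primes from poly-A, so the counts of the 2 classes do not stand for histone output in the same way.

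The sequences below show these 2 kinds of transcript end, with the stem-loop, the polyadenylation signal or a run of A bases in capitals. They were read 5′ to 3′ from the annotated transcripts of GENCODE M21 (GRCm38). The first 3 are stem-loops of Hist1h2ab (chr13:23751567-23751592, plus strand), whose transcript ended 11 bases after it, of Hist1h1c (chr13:23739507-23739532, plus strand), the single replication-dependent gene that changed, and of H2afx (chr9:44335235-44335260, plus strand), the single variant gene with a stem-loop.
Hist1h2ab: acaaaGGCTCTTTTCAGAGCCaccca
Hist1h1c: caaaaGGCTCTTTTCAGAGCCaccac
H2afx: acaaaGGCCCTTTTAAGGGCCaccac
The next 4 are polyadenylation signals near the annotated ends of H1f0 (chr15:79030473-79030500, plus strand) and H3f3a (chr1:180800836-180800863, minus strand), which both rose, and of Hist1h1c (chr13:23740332-23740359, plus strand) and H2afx (chr9:44336033-44336060, plus strand), whose annotated transcripts ran on by 840 and 822 bases after the stem-loop.
H1f0: aaaactttaaAATAAAactggaaaggaa
H3f3a: tttgaaaaatAATAAAagtaccaataga
Hist1h1c: gtatgcttctAATAAAaagcgtttagtt
H2afx: ggctaattttATTAAAggatcgtttggt
The last 2 belong to Hist1h2ao (chr13:21810885-21810914, plus strand) and Hist1h2ap (chr13:21833028-21833057, minus strand), the replication-dependent genes with the highest counts. In both, a run of 12 A bases stood directly before the stem-loop.
Hist1h2ao: gAAAAAAAAAAAAGGCTCTTTTCAGAGCCa
Hist1h2ap: gAAAAAAAAAAAAGGCTCTTTTCAGAGCCa

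The histone stem-loop was found in 44 of the 67 replication-dependent genes and in 1 of the 15 variant genes. All 13 replication-dependent genes with no annotated 3′ UTR were among those without a match, so that 44 of the 54 with one held it. Over 21819 protein-coding genes, 48 (0.22%) held the stem-loop in a transcript, of which 3 were no histone gene by symbol, and 0 held it on the other strand. The polyadenylation signal, searched as AATAAA or ATTAAA in the last 50 bases of any annotated transcript, was found in 11 of the 15 variant genes and in 17 of the 67 replication-dependent genes. The same search found it in 80.9% of the 21819 protein-coding genes, and found its letters on the other strand in 22.8%. In 22 replication-dependent genes a transcript ran on for at least 150 bases after the stem-loop, and 13 genes of this class held both a stem-loop and a polyadenylation signal.

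Library totals ranged from 5998924 to 8303999 counts. Genotype was tested with limma on 11766 genes that passed a filter on low counts, and 1189 (10.1%) had an adjusted p under 0.05, with 708 higher and 481 lower in BcorΔE9-10. Bcor itself had 196, 168 and 185 counts in BcorΔE9-10 and 83 and 109 in BcorWT. Its log2 fold change was 0.78 (adjusted p = 0.0313 by limma, SE 0.218). Over 14 alternative fits it ran from 0.44 to 1.01, and 6 of them lost the call. Reads at the transcript end do not check the deleted exons. Kit, which the sort selects, had 307 to 452 counts in BcorΔE9-10 and 128 and 132 in BcorWT. It was the only 1 called of 8 myeloid progenitor genes, whose median log2 fold change was 0.04. In bulk libraries, fewer cells of a type and less RNA per cell cannot be told apart. The libraries also differed in markers of other cells. Of 10 genes of maturing neutrophils, 6 were lower in BcorΔE9-10. The whole list summed to 149640 to 173550 CPM (counts in each 1000000 after scaling of the libraries) against 216250 to 228655. S100a8 and S100a9 held most of it. Camp alone of the list had a positive log2 fold change (0.25, adjusted p = 0.114 by limma), with overlapping groups. Of 8 tested genes of basophils, mast cells and eosinophils, 5 were lower and 1 higher, with 358 to 522 CPM against 864 to 1086. For 9 tested erythroid genes the median log2 fold change was 1.69, with 1 called higher by limma, 5 called by edgeR and 2 by DESeq2, at 66.2 to 267 CPM over the whole list against 27.3 to 71.6. The 4 genes of cells that the sort excludes summed to 330 to 355 CPM against 418 to 667. Most of that sum was Ly6g, which was lower (208 to 228 CPM against 570 and 321), whereas Itgam, at 120 to 132 CPM against 96.4 and 96.5, was not called (adjusted p = 0.0618 by limma) and lay higher without overlap. B cell (0 of 6) and megakaryocyte (0 of 4) genes gave no call. The part of these cells in the values that follow was not tested.

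Of the 82 histone genes, 70 passed the filter. Of the 9 variant genes tested, 4 rose in BcorΔE9-10 (H1f0, H3f3a, H3f3b and H2afy) and 0 fell, where 6.02% of all tested genes rose and 4.09% fell. Of the 61 replication-dependent genes tested, 1 rose (Hist1h1c) and 0 fell. The median log2 fold change was 0.17 over the variant genes, 0.06 over the replication-dependent genes and 0.00434 over all genes tested. With no filter on low counts the variant median was 0.0293, beside 0.0327 over all genes, and without BcorΔE9-10 replicate 2 it was 0.0817. The replication-dependent median turned to -0.0170 without BcorΔE9-10 replicate 2 and to -0.0204 without BcorWT replicate 2. Among the 61, the groups did not overlap in 7 higher and 5 lower genes, where 22.6% of all tested genes were higher without overlap and 20.3% lower. The plot of fold changes sets each gene beside the others of its type.

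**Figure D1:**
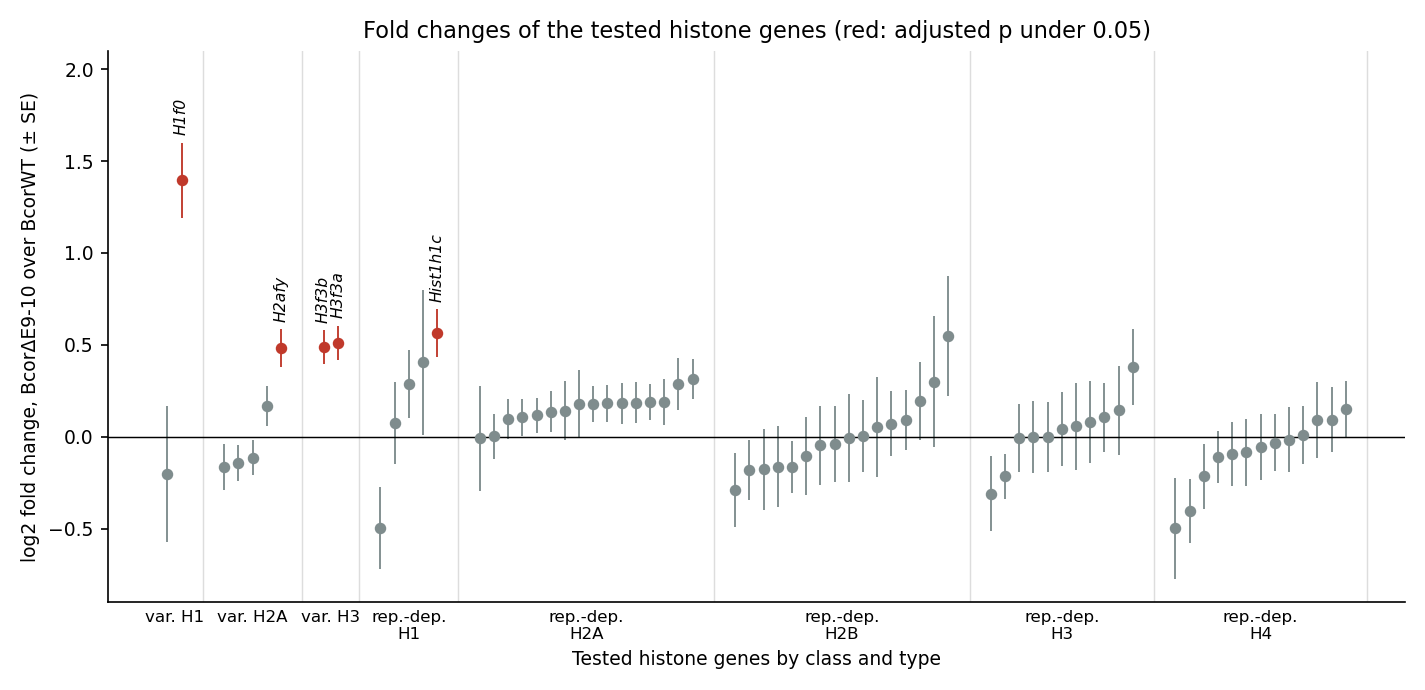
Log2 fold change (BcorΔE9-10 over BcorWT) with its standard error for the 70 tested histone genes, grouped by class (var., variant; rep.-dep., replication-dependent) and type and ordered by size within each. The 5 genes past the limma threshold are red and named, and H1f0 lies highest at 1.40.

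H1f0 encodes H1.0, a linker histone that binds the DNA between nucleosomes and is known to accumulate in cells that stop dividing and differentiate. The gene (chromosome 15, 79028212 to 79030498, plus strand, in the deposited table, which ends it slightly before the M21 transcript printed above) had 288, 205 and 306 counts in BcorΔE9-10 and 106 and 76 in BcorWT. Its 3 BcorΔE9-10 libraries lay at 33.5 to 35.8 CPM and both BcorWT libraries well below them, at 15.1 and 11.3 CPM. The mean over 3 BcorΔE9-10 libraries was 34.4 ± 1.20 CPM (SD) and over 2 BcorWT libraries 13.2 ± 2.68 CPM (SD). This was 2.63-fold higher, or 1.40 on the log2 scale (adjusted p = 0.000487 by limma, SE 0.205). None of its 30-base words occurred in another gene's transcripts, so its reads were not shared with an annotated copy. The other variant linker gene tested, H1fx, had only 23 to 42 counts in any library, with overlapping groups and a log2 fold change of -0.20 (adjusted p = 0.780 by limma, SE 0.372).

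Hist1h1c encodes H1.2, a replication-dependent linker histone whose messenger RNA can also be polyadenylated. It (chromosome 13) had 1321, 907 and 1070 counts in BcorΔE9-10 and 692 and 636 in BcorWT. All 3 BcorΔE9-10 libraries were higher, at 125 to 156 CPM against 98.3 and 94.2 CPM, and the groups did not overlap. The log2 fold change was 0.56 (adjusted p = 0.0115 by limma, SE 0.130). Without BcorΔE9-10 replicate 1 it was 0.50, just past the threshold on the other side (limma adjusted p = 0.0516).

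The other replication-dependent linker genes did not pass the test, and they did not share 1 direction. Hist1h1b (H1.5) had 133, 62 and 124 counts against 123 and 141, and its level of 10.1 to 15.7 CPM lay below the 17.5 and 20.9 CPM of BcorWT without overlap, with a log2 fold change of -0.50 (adjusted p = 0.176 by limma, SE 0.224). Hist1h1e (0.29) and Hist1h1a (0.40) had positive log2 fold changes that missed the threshold, Hist1h1a on only 23 to 49 counts a library. Hist1h1e was 0.17 without BcorΔE9-10 replicate 2 and 0.44 without replicate 3, and Hist1h1a was 0.21 without BcorΔE9-10 replicate 1. Hist1h1d had 0.07, and its BcorWT libraries differed from each other more than the groups did, at 22.3 and 39.3 CPM. Without BcorWT replicate 1 its log2 fold change turned to -0.34, and without BcorΔE9-10 replicate 2 to -0.03.

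The make-up of the linker histone counts, a measure taken within each library that library scaling does not touch, also differed. H1f0 made up 11.8%, 11.8% and 14.9% of the counts of 7 linker genes in BcorΔE9-10 (95% Wilson intervals 10.6 to 13.1, 10.4 to 13.4 and 13.5 to 16.5) and 7.77% and 5.54% in BcorWT (6.46 to 9.31 and 4.45 to 6.87). Hist1h1b made up 5.44%, 3.57% and 6.05% (4.61 to 6.42, 2.80 to 4.55 and 5.10 to 7.17) against 9.01% and 10.3% (7.60 to 10.6 and 8.77 to 11.99). Neither share overlapped between the groups. Such intervals take in counting error alone, because the reads carry no count of molecules. Hist1h1c was the largest part in every library, at 46.3% to 54.1%, and its share was higher in BcorΔE9-10 without overlap, from 52.2% against at most 50.7%. The H1fx share was lower without overlap, at 1.32% to 1.72% against 2.11% and 2.42%, and shares of 1 sum move against each other.

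**Figure D2:**
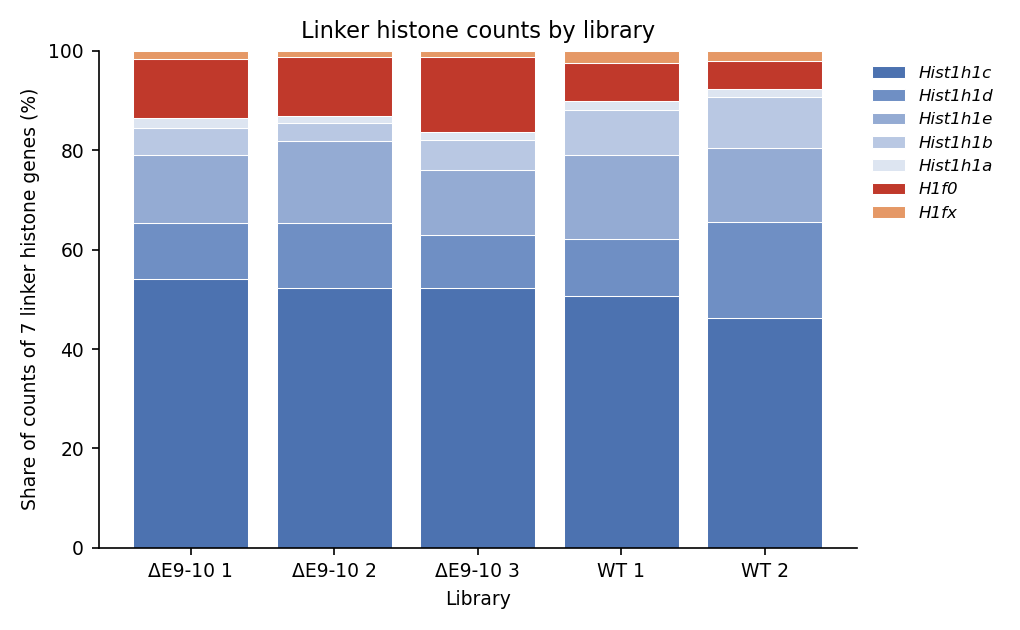
Share of the counts of 7 linker histone genes (percent) held by each gene, 1 stacked bar a library. Blue shades are replication-dependent genes and red and orange are the variants H1f0 and H1fx; the red part is 11.8% to 14.9% in BcorΔE9-10 and 5.54% to 7.77% in BcorWT.

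H3f3a and H3f3b encode the same protein, H3.3, which is placed into chromatin outside DNA replication, at active genes by HIRA and at repeats by ATRX and DAXX. H3f3a had 10626, 8855 and 11096 counts in BcorΔE9-10 and 6306 and 6541 in BcorWT. Its lowest BcorΔE9-10 library, at 1256 CPM, stood above its highest BcorWT library, at 969 CPM. The means were 1333 ± 99.5 CPM (SD, n = 3) and 932 ± 52.1 CPM (SD, n = 2), and the log2 fold change was 0.51 (adjusted p = 0.00251 by limma, SE 0.0937). H3f3b had 10782, 7835 and 10059 counts against 5916 and 6281. Its groups did not overlap either, at 1176 to 1279 CPM against 840 and 931 CPM. The log2 fold change was 0.49 (adjusted p = 0.00298 by limma, SE 0.0918).

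The 2 H3.3 genes lie on different chromosomes (1 and 11), and their counts stood in a like ratio in every library, H3f3a over H3f3b being 0.986, 1.13 and 1.10 in BcorΔE9-10 and 1.07 and 1.04 in BcorWT. No group difference was seen in that ratio, whose ranges overlapped. Against H2afz, another abundant variant, the summed H3.3 counts were 0.861, 0.841 and 0.914 in BcorΔE9-10 and 0.596 and 0.545 in BcorWT, with no overlap. H3f3a shares 17.8% of its 30-base words with other genes, and 9 noncoding copies of it held 84, 204 and 166 counts together in BcorΔE9-10 and 8 and 36 in BcorWT, few beside the gene's own counts. H3f3aos, which overlaps H3f3a on the other strand, held 5 to 9 counts.

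H2afy encodes macroH2A1, a large H2A variant with an added domain, found on silenced chromatin including the inactive X chromosome. It had 2858, 2031 and 2819 counts in BcorΔE9-10 and 1745 and 1549 in BcorWT. The 3 BcorΔE9-10 libraries lay close together at 329 to 338 CPM, above the 248 and 230 CPM of BcorWT. The log2 fold change was 0.48 (adjusted p = 0.00729 by limma, SE 0.103). Gm47071, a gene that overlaps it on the other strand, had 31, 29 and 51 counts against 104 and 66, fewer in BcorΔE9-10 than in BcorWT. H2afy2, which encodes macroH2A2, had 22 counts over all 5 libraries and was not tested.

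The other H2A variants did not pass the test. H2afz and H2afv encode the 2 forms of H2A.Z, a variant of gene starts and enhancers. H2afz had 24853, 19839 and 23141 counts against 20503 and 23545, the highest of any histone gene, with overlapping groups and a log2 fold change of -0.11 (adjusted p = 0.496 by limma, SE 0.0962). H2afv had 3911, 2612 and 3636 counts against 3280 and 3383, with levels of 425 to 462 CPM against 466 and 501 CPM. Its groups did not overlap, and its log2 fold change was -0.14 (adjusted p = 0.387 by limma, SE 0.0985). The ratio of H2afz to H2afv was 6.25 to 7.60 over all libraries and overlapped between the groups. With GC correction, which removes from each library a trend on the GC content of transcript ends, H2afv passed the test as lower (-0.35, limma adjusted p = 0.0342). H2afj, a variant whose groups did not overlap (77.2 to 85.4 CPM against 97.0 and 86.5 CPM), had a log2 fold change of -0.16 (adjusted p = 0.440 by limma, SE 0.126).

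H2afx encodes H2A.X, the variant phosphorylated at DNA breaks, and its transcripts can end at the stem-loop or at the polyadenylation signal. Its counts were 3972, 3285 and 3605 in BcorΔE9-10 and 2929 and 2863 in BcorWT. One BcorΔE9-10 library, at 421 CPM, lay between the BcorWT libraries, at 416 and 424 CPM. The log2 fold change was 0.17 (adjusted p = 0.362 by limma, SE 0.110). It passed the test only with GC correction and the replicate block together (0.35, limma adjusted p = 0.0393).

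**Figure D3:**
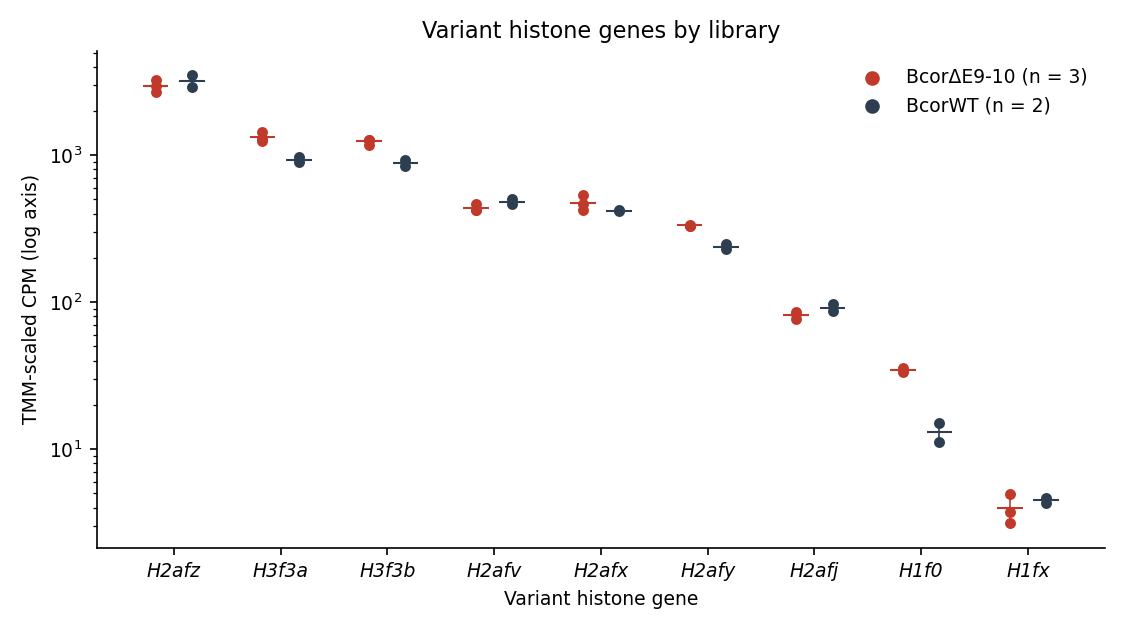
Level of the 9 tested variant histone genes in each library (CPM after TMM scaling, log axis), with BcorΔE9-10 in red and BcorWT in dark blue. Points are libraries, horizontal bars are means and vertical lines are SDs; the red and blue points are clear of each other, red above, for H3f3a, H3f3b, H2afy and H1f0.

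The remaining replication-dependent genes encode the core histones H2A, H2B, H3 and H4, and none of them passed the test in the reported fit. Of the tested genes, 0 of 16 for H2A, 0 of 16 for H2B, 0 of 11 for H3 and 0 of 13 for H4 were called by limma, edgeR or DESeq2. At an unadjusted p under 0.05 limma gave 1 H2A gene, 0 H2B genes, 0 H3 genes and 1 H4 gene, where 25.3% of all tested genes lay under it. The median log2 fold changes were 0.18 for H2A, -0.02 for H2B, 0.04 for H3 and -0.06 for H4. Over the 61 tested genes of this class, 59 had a log2 fold change within 0.5 of 0, and the standard errors ran from 0.0939 to 0.395.

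Replication-dependent genes were nonetheless well represented in these poly-A primed libraries. They took 1.33%, 1.25% and 1.30% of all counts in BcorΔE9-10 and 1.15% and 0.978% in BcorWT, more than the 0.548% to 0.753% of the variant genes. H2A genes held 85.5% to 89.2% of the replication-dependent counts in every library. Hist1h2ao, Hist1h2ap, Hist1h2ad, Hist1h2ai, Hist1h2ab, Hist1h2ac and Hist1h2ag, the 7 highest, held 67.2% to 69.9%. On a scale per length (mean CPM per kb of exon), the median was 1090 for the H2A genes against 34.7 for H2B, 41.1 for H3, 68.9 for H4 and 18.7 for H1. This scale divides by length although 3′ reads come from one end of a transcript. Whether a read was counted in several H2A genes of like sequence is not known. These shares and levels, and the sums below, may therefore count reads more than once.

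**Figure D4:**
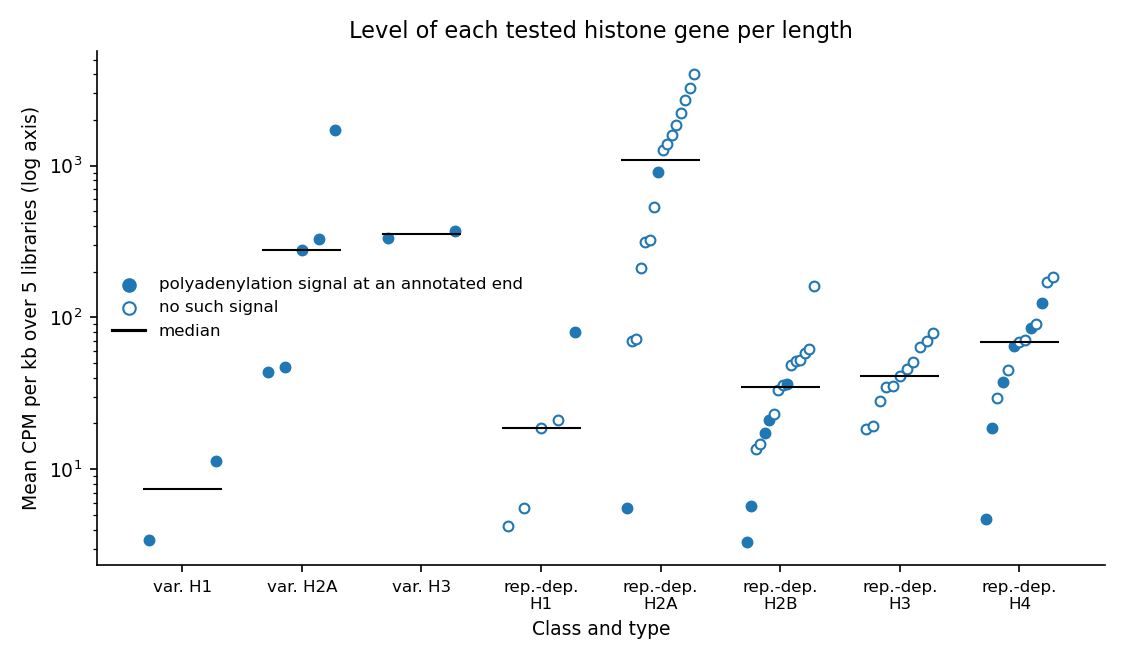
Mean level over 5 libraries of each tested histone gene (CPM per kb, log axis) by class and type, with the median of each as a bar. Filled points have a polyadenylation signal near an annotated end; the open points of the H2A genes lie highest, with a median of 1090 over that type.

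Summed over the 67 genes, the level was 13004, 12262 and 12048 CPM in BcorΔE9-10 and 12429 and 10274 CPM in BcorWT. The groups overlapped, since BcorWT replicate 1 lay among the BcorΔE9-10 libraries, and the log2 ratio of the means was 0.13. It rested on BcorWT replicate 2, without which it was 0.00106, and without BcorWT replicate 1 it was 0.28. The summed H2A level was 11316, 10618 and 10751 CPM against 10884 and 8781 CPM. For H2B, H3 and H4 the summed levels also overlapped, with log2 ratios of -0.04, -0.00810 and -0.03.

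Hist1h2ao had 17593, 11814 and 16566 counts in BcorΔE9-10 and 14190 and 11179 in BcorWT, and Hist1h2ap had 14830, 9178 and 13603 against 11641 and 9139. Both overlapped between the groups, with log2 fold changes of 0.12 (SE 0.0939) and 0.11 (SE 0.101). Hist1h2af, the H2A gene nearest to the threshold, had 4754, 3546 and 4397 counts against 3465 and 2686. Its groups did not overlap, at 514 to 579 CPM against 492 and 398 CPM, and its log2 fold change was 0.31 (adjusted p = 0.0824 by limma, SE 0.110). It passed the test under 6 of 14 alternatives, among them no filter on low counts (adjusted p = 0.0489), GC correction (adjusted p = 0.0217), the replicate block (adjusted p = 0.0279) and the fit without BcorWT replicate 1 (adjusted p = 0.0367), all by limma, but not in edgeR or DESeq2. Without BcorWT replicate 2 its log2 fold change was 0.17 (limma adjusted p = 0.440).

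The H2A genes may not be separate measurements. Hist1h2ab, Hist1h2ad and Hist1h2ai had counts within 1.27% to 3.28% of each other in every library, for example 9227, 9530 and 9406 in BcorΔE9-10 replicate 1. Hist1h2ac and Hist1h2ag differed by 1.36% to 2.32%. Hist1h2ao and Hist1h2ap, which print the same 30 bases above, differed by 18.6% to 28.7%. The median H2A gene shared 75.2% of its 30-base words with other genes, and the handling of reads that align to several places is not given in the sources used here. Whether a read was counted in several of them is not known. Hist2h2aa1 was listed at 0 in every library while Hist2h2aa2, all of whose 30-base words occur in other genes, had 1042 to 1571 counts.

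**Figure D5:**
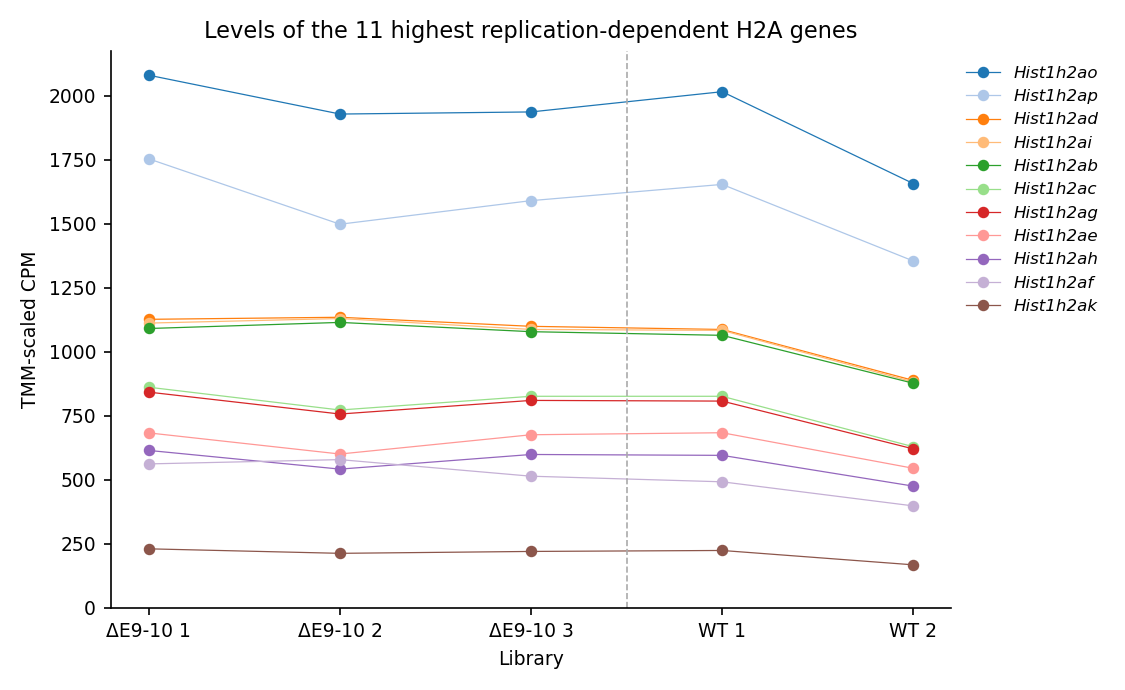
Level (CPM after TMM scaling) of the 11 highest replication-dependent H2A genes in the 5 libraries; thin lines join the points of 1 gene and the dashed line parts the groups. Hist1h2ad, Hist1h2ai and Hist1h2ab lie nearly on top of each other, and BcorWT replicate 2 is lowest for each of the 11 genes.

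Single genes of the other core types had values on both sides of 0. Hist1h2bm (H2B) had the largest positive log2 fold change among them, 0.55 (adjusted p = 0.310 by limma, SE 0.325), on 39 to 100 counts a library. Hist4h4 and Hist2h4, H4 genes on chromosomes 6 and 3, had -0.50 (adjusted p = 0.275 by limma, SE 0.274) and -0.40 (adjusted p = 0.152 by limma, SE 0.172). Hist2h4 had 243, 175 and 199 counts against 273 and 215, and its groups did not overlap, at 23.3 to 28.7 CPM against 38.8 and 31.9 CPM. Hist4h4 had 68, 63 and 143 counts against 123 and 97, with 1 BcorΔE9-10 library among the BcorWT values, and it passed the test as lower under the replicate block (-0.82, limma adjusted p = 0.0448). Hist1h3d, the H3 gene with the most counts, had 779, 622 and 734 against 742 and 740, with a log2 fold change of -0.22 (adjusted p = 0.296 by limma, SE 0.124). Hist1h3g (H3) had 0.38 (adjusted p = 0.268 by limma, SE 0.206). It passed the test as higher with GC correction and the replicate block together (0.67, limma adjusted p = 0.0261).

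Replication-dependent genes with a polyadenylation signal at an annotated end were set beside those without. Of the 17 with a signal, 14 were tested and 1, Hist1h1c, was called, with a median log2 fold change of -0.07 and a range from -0.50 to 0.56. Of the 50 without, 47 were tested and 0 were called, with a median of 0.09 and a range from -0.50 to 0.55. Over all tested genes 10.1% were called, and the 2 ranges were nearly the same. Runs of at least 10 A bases were present in 4 replication-dependent genes, namely Hist1h2ao, Hist1h2ap, Hist1h2ac (15 bases, after the stem-loop) and Hist1h2be (11 bases).

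The 12 genes that did not pass the filter were 6 of each class. Of these, 7 were listed at 0 in every library, among them the germ-line variants H1fnt, H1foo, H2afb1, H2afb2 and H2afb3, and for H1fnt and H1foo, which share no 30-base word with another gene, a count of 0 allows up to 3 counts in a library. The 3 H2afb genes share 30.7% to 70.8% of their words. The other 2 were Hist2h2aa1 and Hist2h3c1, which share 89.8% and 100% of their 30-base words with other genes and are overlapped on the same strand by Gm20634, and for these 5 genes a 0 sets no such limit. Hist2h2bb had the most of the 12, with 40 counts over the 5 libraries, followed by Hist3h2ba with 24, H2afy2 with 22, Hist1h2aa with 17 and Hist1h1t with 5.

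The factors that cut and bind the 3′ ends of replication-dependent transcripts were examined as a list. Of the 14 of 15 that were tested, 0 were called by limma, edgeR or DESeq2, 6 had an unadjusted p under 0.05 by limma, and the median log2 fold change was -0.16. Over all tested genes 10.1% were called and 25.3% had such an unadjusted p. Of the 6, Cpsf3, Lsm10, Lsm11 and Ncbp1 had negative log2 fold changes and Slbp and Cstf2t positive ones. Cpsf3, the endonuclease that cuts the transcript, had the smallest p, with a log2 fold change of -0.42 (adjusted p = 0.0686 by limma, SE 0.140). Slbp, the stem-loop binding protein, had 1128, 859 and 1204 counts in BcorΔE9-10 and 665 and 816 in BcorWT. Its groups did not overlap, at 133 to 141 CPM against 94.4 and 121 CPM, and its log2 fold change of 0.37 (adjusted p = 0.0794 by limma, SE 0.128) missed the threshold. It passed under 3 of 14 alternatives, among them GC correction and the replicate block together (adjusted p = 0.0456) and the fit without BcorWT replicate 2 (adjusted p = 0.0177), both by limma. Without BcorWT replicate 1 the log2 fold change was 0.18 (limma adjusted p = 0.536).

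Of 32 histone chaperones and exchange factors, which carry histones to chromatin, 0 rose and 1 fell, where 6.02% of all tested genes rose and 4.09% fell. Nap1l4, a nucleosome assembly protein, had 1287, 961 and 1308 counts against 1381 and 1352, and every BcorΔE9-10 library (152 to 157 CPM) lay below both BcorWT libraries (196 and 200 CPM). Its log2 fold change was -0.37 (adjusted p = 0.0414 by limma, SE 0.108), and leaving out any 1 of the 5 libraries ended the call (limma adjusted p from 0.0571 to 0.129). The median over the list was -0.00434.

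Of 23 genes of DNA replication, 3 rose and 2 fell, where 6.02% of all tested genes rose and 4.09% fell, and the median log2 fold change was 0.00876. Fen1, the flap endonuclease of lagging-strand synthesis, had 561, 466 and 673 counts against 180 and 318, a log2 fold change of 1.08 (adjusted p = 0.00254 by limma, SE 0.199). Pcna, the sliding clamp, had 1661, 1505 and 1868 counts against 872 and 1025, a log2 fold change of 0.67 (adjusted p = 0.00359 by limma, SE 0.130). Mcm4, a subunit of the replicative helicase, had 0.64 (adjusted p = 0.00681 by limma, SE 0.136), while Lig1, which joins Okazaki fragments, had -0.46 (adjusted p = 0.0184 by limma, SE 0.115) and Ccne1, the cyclin that acts before S phase, -0.64 (adjusted p = 0.0350 by limma, SE 0.184). The genes of this list thus moved both ways. Fen1 had 0.63 on the log2 scale without BcorWT replicate 1 and 1.52 without BcorWT replicate 2. Mcm4 lost its call with GC correction (0.24, limma adjusted p = 0.318) and without BcorWT replicate 1 (0.39, limma adjusted p = 0.122). Lig1 lost its call with GC correction (-0.35, limma adjusted p = 0.0686) and without BcorWT replicate 2 (-0.39, limma adjusted p = 0.0796), and lay between -0.54 and -0.31 over the 14 alternatives. Ccne1 lost its call in 9 of 14 alternatives, with limma adjusted p-values up to 0.198 among them.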

How the data were processed

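Per the labels and the study's methods, the authors made QuantSeq 3′ libraries, trimmed reads (cutadapt 1.7 in the submitters' processing notes), aligned them to GRCm38/mm10 with HISAT2 and counted them per gene with featureCounts (Subread 1.5.0-p3). What was deposited is a table of raw, unnormalised counts by gene. Options for strand and for reads with several alignments are not given in the sources used here. Gene symbols were found for 52403 of 52550 identifiers, of which 95.24% had the same start and end in GENCODE M21.

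Genes were filtered with filterByExpr (minimum count 10, minimum total count 15), scaled by TMM and tested with limma 3.58.1 on voom values, two-sided, with Benjamini-Hochberg adjustment over all 11766 genes, in R 4.3.3. edgeR 4.0.16 and DESeq2 1.42.0 were alternatives, with sample weights, other scaling and filters, a GC correction (lowess span 0.3 on the last 300 transcript bases), a replicate block and each library left out. Libraries of 1 group were further apart than counting error (chi-square by gene 6.03 to 11.7, where counting error alone gives 1), so none was taken as a second deposit of another, and each was used as a replicate. This does not show that they came from separate animals. The fits were checked on simulated counts. Every tested histone gene could be named, as could list genes with an adjusted p under 0.05, Slbp, Bcor and the 5 untested members with the most counts. Named outside this rule were Cpsf3, Lsm10, Lsm11, Ncbp1 and Cstf2t, picked at an unadjusted p under 0.05 by limma. So were Itgam, Camp, Rbbp4, the members listed at 0 in every library, and genes that copy or overlap a member. The members and gene lists were chosen with earlier results of these data known.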

Additional observations from a re-analysis of the deposited data

Results flagged for a closer look

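Noncoding copies of 2 variant histone genes were assigned counts, and these were above the BcorWT counts in every BcorΔE9-10 library. The handling of reads that align to several places is not given. Whether these reads came from the copies or from the parent genes is therefore not known. These copies were chosen after their values were seen. Gm8203, all of whose 30-base words occur in H2afz, had 98, 141 and 112 counts in BcorΔE9-10 and 5 and 1 in BcorWT, which is 0.394%, 0.711% and 0.484% of the H2afz counts against 0.0244% and 0.00425%. H2afz itself did not pass the test (limma adjusted p = 0.496).

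For H3f3a, 9 noncoding copies that share at least 50% of their 30-base words with it had 84, 204 and 166 counts together in BcorΔE9-10 and 8 and 36 in BcorWT. As a share of the H3f3a counts this was 0.791%, 2.30% and 1.496% against 0.127% and 0.550%. The most counts were in H3f3c, with 19, 52 and 42 against 4 and 6. No test is given for the copies of either gene, since those that passed the filter on low counts did so only through the BcorΔE9-10 libraries, where they are high. Groups of 3 and of 2 libraries are too small for a test of single libraries that stand apart.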

How the results depend on the processing

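The 4 calls among the variant genes held under all 14 alternatives, with log2 fold changes from 1.20 to 1.60 for H1f0, 0.45 to 0.65 for H3f3a, 0.41 to 0.63 for H3f3b and 0.43 to 0.63 for H2afy. Of 462 values for 33 named genes, 402 kept their direction and side of the threshold, 32 lost the call, 18 gained one and 10 turned direction. Scaling by total counts alone moved the median of all genes to 0.149 and gave 1407 calls (1210 higher, 197 lower). It gave 5 replication-dependent genes called (Hist1h1c, Hist1h2ab, Hist1h2ad, Hist1h2af and Hist1h2ai), 1 histone mRNA processing gene, 2 chaperones and 3 S-phase genes. Under this scaling the variant median was 0.31 and the summed replication-dependent log2 ratio 0.28. H2afz (0.0311) and H2afv (0.00320) turned positive under it, and relative to its median they were -0.12 and -0.15. With no filter on low counts, 2 replication-dependent genes and 0 chaperones were called, and the variant median was 0.0293, below the 0.0327 of all genes. Same-numbered libraries deviated together only weakly (correlations 0.070 and 0.076). Deviations were taken from group means, so those of the 2 BcorWT libraries mirror each other. The 2 correlations are thus not independent and do not settle whether libraries were paired. The fit with a replicate block made 1454 calls, 3 replication-dependent genes and 0 chaperones. GC correction gave 4 replication-dependent genes (Hist1h1c, Hist1h2ab, Hist1h2ad and Hist1h2af), 0 chaperones and 2 S-phase genes. With GC correction and the block together these were 4, 0 and 3, with 1 processing gene and a variant median of 0.35, and H1fx turned to 0.0282. Leaving out each library gave 558 to 1200 calls over all genes (558 without BcorWT replicate 1, and 774 and 723 without BcorΔE9-10 replicates 2 and 3), 0 (without BcorΔE9-10 replicate 1) to 2 (without BcorWT replicate 1) replication-dependent genes, 0 to 1 processing genes and 3 to 5 S-phase genes (1 and 3 without BcorWT replicate 2), 0 to 1 chaperones (1, Rbbp4, without BcorWT replicate 2) and a summed log2 ratio from 0.00106 to 0.28. The variant median ran from 0.0817 to 0.239 and the replication-dependent median from -0.0204 to 0.124. With all libraries kept, the replication-dependent median ran from 0.0385 with sample weights to 0.212 with total counts alone. With GC correction and the block together it was 0.209, beside 0.0113 over all genes. Over the same libraries left out, Hist1h1d ranged from -0.345 (without BcorWT replicate 1) to 0.480 and was -0.0263 without BcorΔE9-10 replicate 2. H2afz ranged from -0.249 to 0.0226, Hist1h2ac from -0.00576 to 0.377, Hist1h2ag from -0.00279 to 0.366, Hist1h2ao from -0.0203 to 0.252 and Hist1h2ap from -0.0319 to 0.246, where the value on the other side of 0 from the one reported was that without BcorWT replicate 2 for all 5. Where 1 BcorWT library was left, it was assumed to vary like the others. The causes of these shifts were not tested. Depth limits genes such as H1fx and Hist1h1a, with under 50 counts a library.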
